A study of Mus musculus with 12 samples.

Results

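The proliferin genes of the mouse, *Prl2c1*, *Prl2c2*, *Prl2c3* and *Prl2c5*, are 4 of the 43271 genes listed in a count table of MC38CEA cells. They were selected on measured values of these libraries, as placental paralogs that differed strongly between the lines carrying different shRNAs, so the difference between the lines is given here as a description without a test. MC38CEA is a mouse colon adenocarcinoma line that expresses human carcinoembryonic antigen. Poly(A) RNA was counted in 12 libraries of 4 groups with 3 biological replicates each. A17.2 cells carried the *Adam17*-targeting shRNA A17.2 and were stimulated for 6 h with human IL1β and mouse IFNγ, both at 10 ng/ml, or left without cytokines. The paper on these cells states that this shRNA also lowered ADAM10, and it proposes off-target effects. Control cells carried a non-targeting shRNA and were stimulated in the same way or left without cytokines. All groups came from cells transduced with a lentiviral pLKO vector and selected with puromycin, and the lines were pools of cells and not clones. The submitters remarked that the control shRNA was toxic and that its cassette tended to be lost, which limits the control cells as a comparator. The raw file of 1 library, control cells with cytokines, replicate 1, was noted as corrupted, and its gene counts were supplied.

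Proliferins are secreted glycoproteins of the prolactin family. They were first met as transcripts of growth-stimulated mouse fibroblasts, and in the animal they are made above all by trophoblast giant cells of the placenta, from which they reach the mother and promote the migration of endothelial cells and the growth of vessels. The cation-independent mannose-6-phosphate receptor, the product of *Igf2r*, binds them. Their promoter is a textbook example of a composite element, at which AP-1 and the glucocorticoid receptor act together.

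The members are close copies, which decides how their counts can be read. The first 120 bases of the coding sequence are shown to let the copies be compared base by base (GENCODE M21 transcripts, GRCm38, 5′ to 3′). Capitals mark bases that differ from *Prl2c2*.

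Prl2c2: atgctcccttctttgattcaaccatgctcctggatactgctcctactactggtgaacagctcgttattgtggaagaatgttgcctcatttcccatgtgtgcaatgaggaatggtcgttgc

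Prl2c3: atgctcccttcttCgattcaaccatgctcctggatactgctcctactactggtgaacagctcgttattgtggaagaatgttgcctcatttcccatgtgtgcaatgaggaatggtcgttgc

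Prl2c5: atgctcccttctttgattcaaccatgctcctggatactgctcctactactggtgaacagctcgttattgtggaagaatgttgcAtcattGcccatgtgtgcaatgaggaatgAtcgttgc

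Prl2c1: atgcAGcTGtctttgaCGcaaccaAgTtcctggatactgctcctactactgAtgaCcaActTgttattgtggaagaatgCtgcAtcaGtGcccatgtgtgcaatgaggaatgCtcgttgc

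In this stretch *Prl2c3* differed from *Prl2c2* at 1 base, *Prl2c5* at 3 bases and *Prl2c1* at 17 bases. Over the whole coding sequence *Prl2c2* and *Prl2c3* were 99.6% identical, with 3 differences over 672 aligned bases. *Prl2c5* was 96.1% identical to *Prl2c2*, and *Prl2c1* was 92.3 to 92.4% identical to the other members. Of all stretches of 100 bases in the *Prl2c2* transcript, 66.4% also occurred without a mismatch in another member, against 62.3% for *Prl2c3*, 8.7% for *Prl2c5* and 5.8% for *Prl2c1*. At 150 bases the shares were 50.9%, 49.9%, 0% and 0%, and at 50 bases 89.5%, 78.6%, 33.6% and 28%. Counting genes outside the members too, the share of *Prl2c5* at 50 bases was 38.6%. Neither the read length nor the treatment of reads with several matches is stated. How reads were divided between *Prl2c2* and *Prl2c3* is therefore uncertain. If the reads were short, the low counts of *Prl2c5* and *Prl2c1* could also hold reads of other members, which was not tested. The sum of the 4 members is therefore reported beside each of them.

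On GRCm38, the build of the files (mm10), *Prl2c3* lies at chr13:12790816-12800079 and *Prl2c2* at chr13:12996125-13005383, both on the minus strand, and *Prl2c5* at chr13:13182715-13191923 on the plus strand. These 3 genes share a locus of 401 kb. *Prl2c1* lies at chr13:27849342-27857788 on the plus strand, inside the main prolactin gene cluster at chr13:27057570-28151611, which begins 13.9 Mb further along the chromosome. Each member has 5 exons in the transcript used, and no annotated gene overlaps any of them, on either strand.

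Promoter sequence was found for *Prl2c3* and *Prl2c5* and is shown because these members had different levels with nearly the same promoter (RefSeq, GRCm38.p6, the 250 bases before the annotated start, 5′ to 3′). The windows searched also held the 50 bases after the start and lie at chr13:12800030-12800329 on the minus strand for *Prl2c3* and at chr13:13182466-13182765 on the plus strand for *Prl2c5*. Capitals mark matches to the motifs described after them. *Prl2c1* and *Prl2c2* had no entry.

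Prl2c3: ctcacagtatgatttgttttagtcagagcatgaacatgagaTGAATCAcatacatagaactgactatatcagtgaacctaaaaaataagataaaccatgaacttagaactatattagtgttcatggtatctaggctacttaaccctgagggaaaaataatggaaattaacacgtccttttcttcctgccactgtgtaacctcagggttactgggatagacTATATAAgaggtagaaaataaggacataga

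Prl2c5: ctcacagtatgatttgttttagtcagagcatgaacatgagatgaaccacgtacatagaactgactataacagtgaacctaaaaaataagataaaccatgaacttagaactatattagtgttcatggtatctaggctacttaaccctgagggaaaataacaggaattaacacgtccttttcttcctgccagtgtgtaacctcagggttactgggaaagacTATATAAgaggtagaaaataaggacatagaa

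The windows were 95.4% identical, with 14 differences over 302 aligned positions. TGANTCA, the AP-1 motif with any base in the middle, matched in *Prl2c3* at bases -209 to -203 as TGAATCA and did not match in *Prl2c5*, where the substitution T46C lies within it (the base of *Prl2c3*, the position counted from 1 at the 5′ end of its window, then the base of *Prl2c5*). On either strand it matched in 7.81% of 32851 promoter windows of the same length. TATANAA matched in both members as TATATAA, at -30 to -24 in *Prl2c3* and -31 to -25 in *Prl2c5*, and in 11.3% of all windows. The glucocorticoid receptor motif TGTTCT (19% of all windows), the interferon response element (3.44%) and the NF-kB motif (1.63%) matched in neither. No matches overlapped each other, and a match is a description of letters and not of a binding site. Sequence further upstream was not searched, and a site cut by the edge of the window would not be found. A missing match therefore does not show that a promoter lacks the site or the composite element.

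The 12 libraries held 16592831 to 35861103 counts, and 15649 genes passed the filter on low counts, all 4 members among them. *Adam17* was at 44.9 ± 6.66 CPM in A17.2 cells against 109 ± 17.4 CPM in control cells with cytokines, and at 29.5 ± 1.56 CPM in A17.2 cells against 73.7 ± 4.54 CPM in control cells without them (MV ± SD, n = 3), so that the targeted gene was lower under its shRNA (log2 -1.28 ± 0.15 SE with and -1.32 ± 0.15 without cytokines). CPM are counts scaled to a common library size by TMM. The defining markers of the labelled colon epithelium were near 0: 11 epithelial markers, *Cdh1*, *Epcam* and keratins among them, summed to 0.607 to 1.49 CPM in A17.2 cells and 0.767 to 1.3 CPM in control cells. The 8 fibroblast and mesenchyme markers summed to 2540 to 4230 CPM in A17.2 cells with cytokines and 3090 to 4800 CPM in those without, against 2710 to 4020 CPM in control cells with cytokines and 3330 to 4000 CPM in those without. Most of this was *Vim*, whereas *Thy1* was at 0.0121 to 0.0506 CPM. *Col1a1*, a collagen chain, was the only marker of the list called between the lines by edgeR, with 16.2 ± 10.9 CPM in A17.2 cells against 1.53 ± 0.34 CPM in control cells with cytokines (log2 3.40 ± 0.82, adjusted p = 0.0309) and 12.1 ± 9.27 against 1.31 ± 0.34 CPM without (3.19 ± 0.81, adjusted p = 0.0379). *Col1a2*, another collagen chain, went the other way, with log2 -2.07 ± 0.87 with cytokines and -2.455 ± 0.886 without. Its adjusted p was 0.2 and 0.144 in edgeR, and 0.0177 and 0.00802 with the replicate number as a block. The block fit called 3 of 7 markers higher and 1 lower in A17.2 cells with cytokines, and 2 higher and 2 lower without. Of all genes it called 17.9% higher and 19.1% lower with cytokines, and 15.9% higher and 17.5% lower without. The part of these markers in the proliferin difference was not tested. In bulk RNA, fewer cells with a transcript and less of it per cell cannot be told apart.

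**Figure D1:**
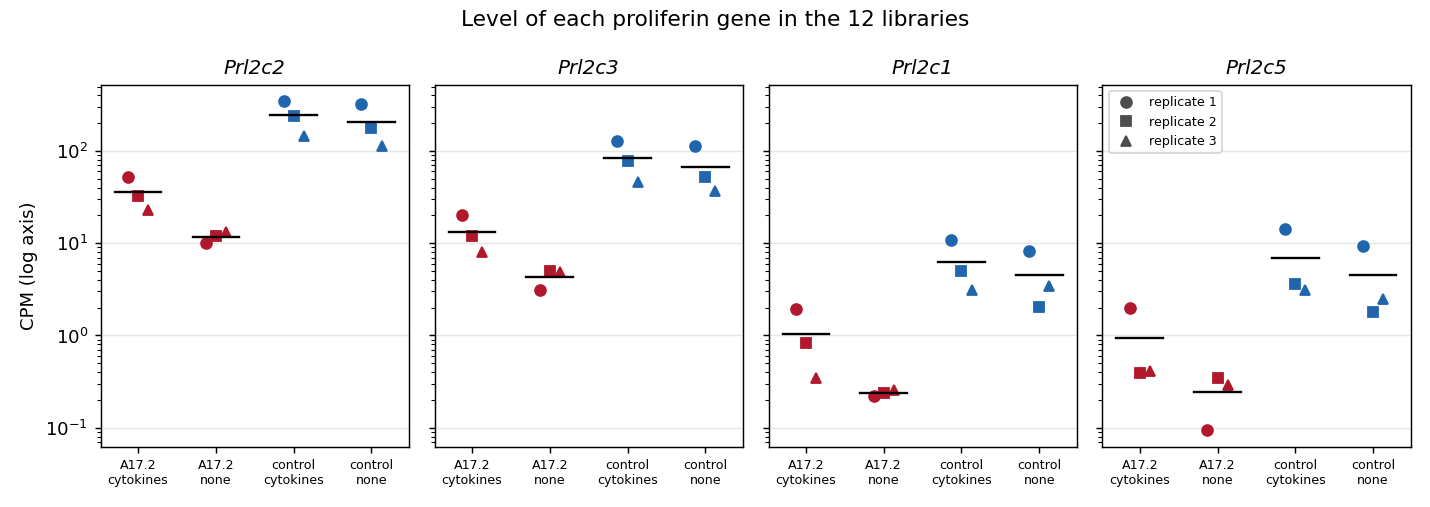
Level of each proliferin gene, one panel per gene, in CPM on a log axis. Each point is 1 of 12 libraries (circle, square and triangle for replicates 1, 2 and 3), black bars are group means, red is A17.2 cells and blue is control cells. With cytokines as without them, the A17.2 libraries of each gene sit below the control libraries of the same state, as the choice of the genes implies.

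*Prl2c2* was the most abundant member, with 52.3, 32.4 and 23.1 CPM in A17.2 cells with cytokines (replicates 1, 2 and 3). It had 10.1, 12.1 and 13.2 CPM in A17.2 cells without cytokines. Control cells with cytokines had 345.1, 240.9 and 147 CPM and control cells without cytokines 319.9, 178.8 and 114.5 CPM. In control cells it thus ranked 754th with cytokines and 856th without them by mean CPM among the 15649 genes tested, and in A17.2 cells 5590th and 9067th. The A17.2 libraries with cytokines were above those without, and the ranges of both kinds of control library overlapped.

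*Prl2c3* followed the same order. A17.2 cells with cytokines had 20.1, 11.9 and 7.99 CPM, and A17.2 cells without cytokines had 3.12, 4.94 and 4.9 CPM. Control cells with cytokines had 127, 77.2 and 45.7 CPM, and those without had 114, 51.7 and 36.8 CPM. Again the A17.2 groups did not overlap and the control groups did.

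*Prl2c1*, the member inside the main prolactin cluster, rested on few reads. It had 64, 19 and 10 counts in A17.2 cells with cytokines (1.95, 0.824 and 0.346 CPM) and 7 counts in each A17.2 library without cytokines (0.219, 0.24 and 0.254 CPM). Control cells had 10.9, 4.95 and 3.14 CPM with cytokines and 8.17, 2.03 and 3.41 CPM without them.

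*Prl2c5* was as low. It had 66, 9 and 12 counts in A17.2 cells with cytokines (2.01, 0.39 and 0.415 CPM) and 3, 10 and 8 counts in those without (0.0936, 0.343 and 0.29 CPM). Control cells had 14.2, 3.61 and 3.1 CPM with cytokines and 9.25, 1.8 and 2.51 CPM without them. Replicate 1 of the A17.2 cells held both the highest library with cytokines and the lowest without.

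Transcript lengths were 842 to 857 bases, so that levels per length kept this order. Per kb of transcript, *Prl2c2* was at 290 ± 118 CPM in control cells with cytokines and *Prl2c3* at 97.4 ± 48.1 CPM, and *Prl2c2* was above *Prl2c3* in each of the 12 libraries. *Prl2c5* (8.27 ± 7.45 CPM per kb) and *Prl2c1* (7.43 ± 4.77 CPM per kb) did not differ beyond their spread there, and their ranges overlapped in every group (MV ± SD, n = 3).

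The summed proliferin level was 51.2 ± 22.8 CPM in A17.2 cells with cytokines and 16.6 ± 2.69 CPM in those without, against 341.1 ± 149.9 CPM in control cells with cytokines and 280.8 ± 152.2 CPM in those without (n = 3). A17.2 cells were thus lower than control cells by a fitted log2 difference of -2.74 ± 0.46 (fitted estimate ± SE) with cytokines and of -4.08 ± 0.49 without. The single members ranged between -2.86 and -2.58 with cytokines and between -4.24 and -3.97 without. By replicate number, control cells exceeded A17.2 cells 6.52-, 7.18- and 6.25-fold with cytokines and 33.4-, 13.3- and 8.45-fold without. Without cytokines, replicate 1 gave the largest ratio of each member, and leaving out replicate 1 of every group moved the log2 difference of the sum to -3.47. The 4 members were lower in A17.2 cells in all 3 libraries with no overlap in both states, as were 12.9% of all genes tested with cytokines and 11.5% without. The members were chosen for this difference, so nothing is read from that count. Among all genes, 3.68% were called lower and 3.17% higher in A17.2 cells with cytokines, and 3.57% lower and 2.86% higher without (edgeR quasi-likelihood test, adjusted p under 0.05).

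In A17.2 cells the cytokines were accompanied by higher counts of every member. The sum reached 51.2 CPM with cytokines against 16.6 CPM without, a fitted 3.09-fold difference (log2 1.63 ± 0.44 SE). *Prl2c2* was 3.05-fold higher with cytokines (log2 1.61 ± 0.42), *Prl2c3* 3.09-fold (1.63 ± 0.50), *Prl2c1* 4.36-fold (2.12 ± 0.76) and *Prl2c5* 3.93-fold (1.98 ± 0.98). All 4 members were higher in all 3 libraries with no overlap, as were 9.28% of all genes tested. In the edgeR fit by group, 0 of 4 members were called, although 3 of 4 had an unadjusted p below 0.05. The adjusted p was 0.0567 for *Prl2c2* and 0.072 for the sum. In this fit 3.85% of all genes were called higher and 0.415% lower. The libraries of one replicate number deviated together across genes in all groups. The proliferin sum did not follow this in A17.2 cells, where replicate 1 was the highest library with cytokines and the lowest without. A block assumes the same shift in each group, so its p-values are given only beside those of the fit by group. With the number as a block, all 4 members rose, with an adjusted p between 0.000328 for *Prl2c2* and 0.0423 for *Prl2c5*, and the sum rose by log2 1.47 ± 0.26 (adjusted p = 0.000694), while 10.6% of all genes were called higher. *Prl2c1* passed the filter on low counts only through the control libraries, where it was higher, so its calls in A17.2 cells are not counted as support. Within the A17.2 groups 3 of 4 members passed it, *Prl2c2*, *Prl2c3* and *Prl2c5*, and the block called 3 of these 3. DESeq2 called 3 of 4, *Prl2c2*, *Prl2c3* and this *Prl2c1*, without *Prl2c5*, beside 6.6% of all genes in either direction.

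The size of this rise differed between replicate numbers. The summed level was 5.65-, 2.59- and 1.71-fold higher with cytokines in A17.2 replicates 1, 2 and 3. For *Prl2c5* the ratios were 21.5, 1.14 and 1.43, on the few counts given above. Without the libraries of replicate 1 the block fit called 2 of 4 members, *Prl2c2* (log2 1.15, adjusted p = 0.000215) and *Prl2c3* (1.03, adjusted p = 0.000569), with the sum at log2 1.10. Without replicate 2 it called 4, and without replicate 3 it called 3, *Prl2c1* among them in both. In the fit by group, leaving out 1 library gave 1 call (*Prl2c2*) without A17.2 cells with cytokines replicate 3, control cells with cytokines replicate 1 or 3, or control cells without cytokines replicate 3, and 2 calls (*Prl2c2*, *Prl2c3*) without control cells without cytokines replicate 1. The A17.2 libraries with and without cytokines enter this comparison and also the choice of the genes.

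**Figure D2:**
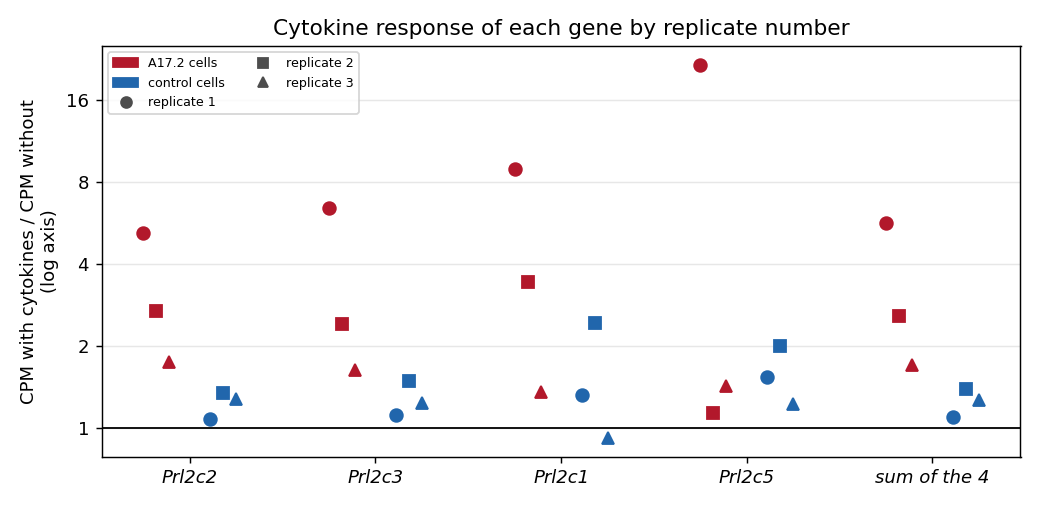
Ratio of the level with cytokines to the level without, on a log axis, for each gene and the sum, by replicate number (circle 1, square 2, triangle 3). Red points are A17.2 cells and blue points control cells, and the line marks a ratio of 1. The sum was at 5.65, 2.59 and 1.71 in A17.2 cells and at 1.1, 1.39 and 1.27 in control cells.

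In control cells no member passed the test. The sum had 341 CPM with cytokines against 281 CPM without, a log2 difference of 0.28 ± 0.43 SE (adjusted p = 0.947, edgeR). The single members lay between 0.26 for *Prl2c2* and 0.60 for *Prl2c5*. By replicate number the ratio of the sum was 1.1, 1.39 and 1.27, above 1 in 3 of 3 pairs, whereas the highest control library without cytokines exceeded the lowest 2.87-fold. None of the 4 members was higher in all 3 libraries without overlap, against 8.72% of all genes tested. In edgeR 0 of 4 were called and 0 of 4 had an unadjusted p below 0.05, in the fit by group as with the block and in DESeq2, while 3.14% of all genes were called higher and 0.185% lower, and 10.4% higher with the block (5.53% in either direction in DESeq2). Without replicate 1 of every group, the block fit called *Prl2c3* (log2 0.47 ± 0.13, adjusted p = 0.0261). Without the library with the corrupted raw file the log2 difference of the sum was -0.056, and without control cells without cytokines replicate 3 it was -0.0060.

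The difference between the responses was then estimated directly. This contrast equals the difference between the lines with cytokines minus that without, and the genes were chosen on those values. Its estimates and p-values are therefore given as a description only. For the sum, the log2 response of A17.2 cells exceeded that of control cells by 1.35 ± 0.61 SE, and for the single members by 1.32 for *Prl2c3* to 1.66 for *Prl2c1*. In edgeR 0 of 4 members were called (adjusted p = 1 for each), 1 of 4 (*Prl2c2*) had an unadjusted p below 0.05, and 0% of all genes were called. With the replicate block the difference of the sum was 1.16 ± 0.35 (adjusted p = 0.278), 0 of 4 members were called, 3 of 4 had an unadjusted p below 0.05, and 0.415% of all genes were called in either direction. DESeq2 called 0 of 4 and 0.153% of all genes. Without replicate 1 of every group the difference of the sum was 0.70, and that of *Prl2c5* was -0.26. Without replicate 3 the block fit called *Prl2c2* (1.62 ± 0.29, adjusted p = 0.0348). Because of the choice of the genes, whether the responses of the lines differ is not concluded from these values.

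**Figure D3:**
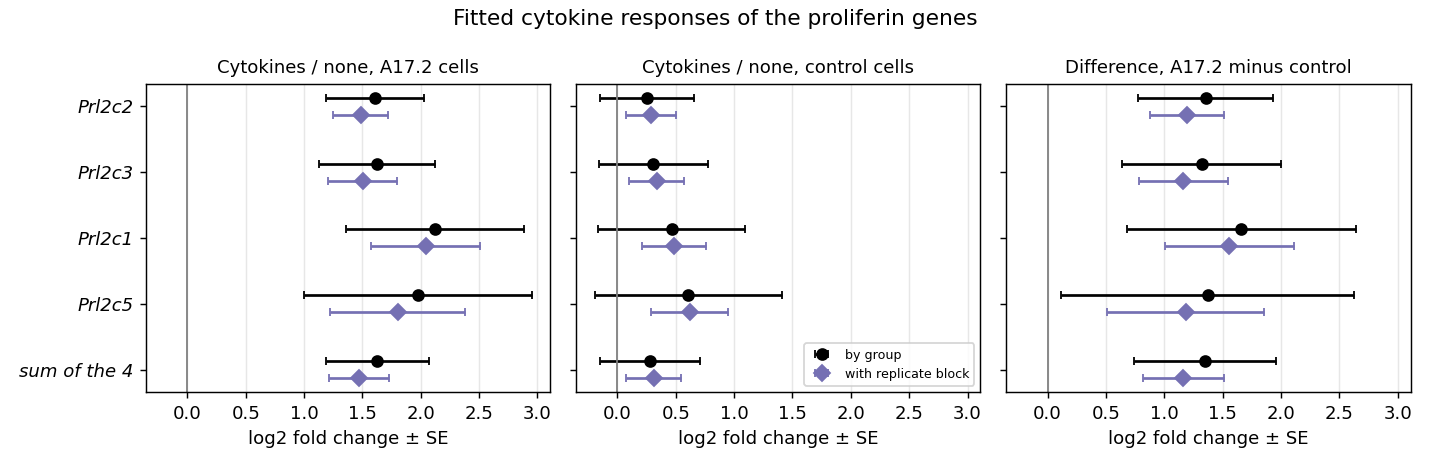
Fitted log2 fold change ± SE of each proliferin gene and of the sum, with cytokines over without in A17.2 cells (left) and control cells (middle), and the difference of these responses (right). Black circles are the fit by group and purple diamonds the fit that blocks on replicate number. In A17.2 cells the sum was at 1.63 ± 0.44 by group and 1.47 ± 0.26 with the block, and in control cells at 0.28 ± 0.43 and 0.31 ± 0.23.

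The composition of the proliferin counts was nearly the same in all groups. *Prl2c2* gave 68.5 to 76.3% of the summed counts over the 12 libraries, *Prl2c3* 22 to 28.1%, *Prl2c1* 0.867 to 2.55% and *Prl2c5* 0.693 to 2.86%. The mean share of *Prl2c2* was 70.8 ± 2.04% in A17.2 cells with cytokines and 71.3 ± 3.03% in those without, against 72.3 ± 2.58% in control cells with cytokines and 73.4 ± 2.72% in those without (n = 3). In 8 exact two-sided permutation tests of cytokines against none, 4 in each line, p was 0.6 to 1 (adjusted p = 1 for each), where 3 against 3 libraries cannot go below 0.1. The largest difference of mean shares was 1.04 percentage points, for *Prl2c2* in control cells. The ratio of *Prl2c3* to *Prl2c2* counts stayed between 0.289 and 0.409, with a median of 0.35, on transcripts that share most of their sequence. Whether the counting fixed that ratio was not tested.

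**Figure D4:**
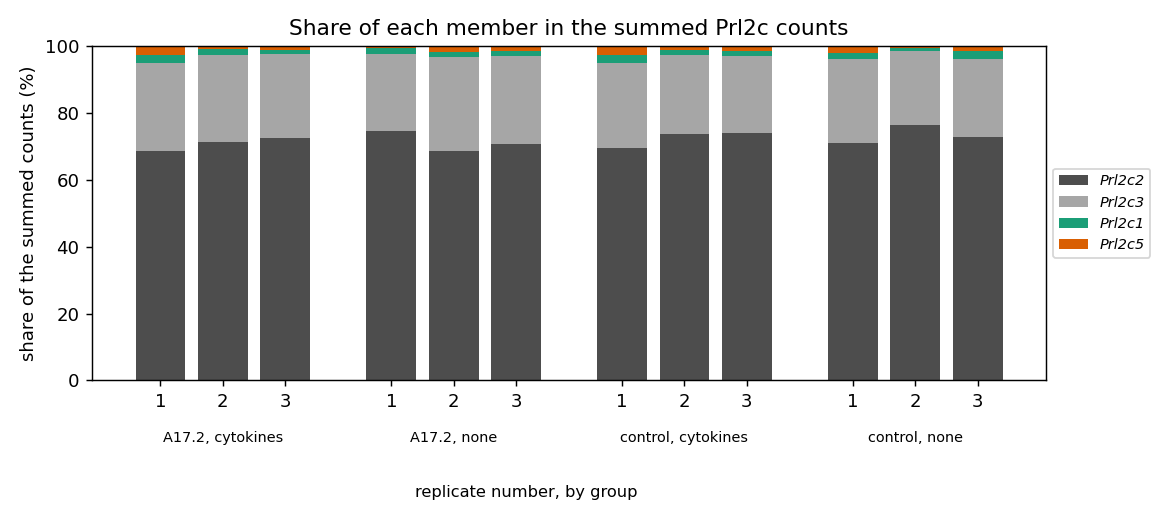
Share of each member in the summed proliferin counts, in percent, one bar per library (replicate numbers below, groups named under them), from *Prl2c2* (dark grey) at the bottom over *Prl2c3* (light grey) and *Prl2c1* (green) to *Prl2c5* (orange). *Prl2c2* and *Prl2c3* together made up 94.8 to 98.4% of each bar.

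Among replicates, the members moved together. Replicate 1 had the highest level of all 4 members in A17.2 cells with cytokines and in both groups of control cells, and the lowest of all 4 in A17.2 cells without cytokines. In that last group *Prl2c1* had 7 counts in each library, so its order there came from the scaling alone. *Prl2c5* rested on 3, 10 and 8 counts there. The highest over the lowest library was 2.4 for the sum in A17.2 cells with cytokines and 1.38 in those without, against 2.5 in control cells with cytokines and 2.87 in those without. Across the 12 libraries the log2 CPM of *Prl2c2* and *Prl2c3* had a Pearson r of 0.997, and the other pairs 0.952 to 0.981. These values describe libraries that share lines, depth and reads from common sequence.

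The rest of the prolactin family was near 0. The 22 other family genes together had 35 counts in all 12 libraries, against 52556 for the 4 proliferins. The highest was *Prl7d1*, which encodes proliferin-related protein, an inhibitor of vessel growth, with 8 counts in all. No family gene outside Prl2c had more than 4 counts in a library, and none passed the filter. *Prl2b1*, *Prl3a1*, *Prl3b1* (placental lactogen II), *Prl3d2*, *Prl5a1*, *Prl7b1*, *Prl7c1* and *Prl8a6* were at 0 throughout, where a count of 0 in 318327612 counts allows up to 0.00942 CPM (3 counts, counting error only). *Prl* itself had 1 count.

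Of the receptors, *Igf2r* was well expressed, with 117 ± 15.8 CPM in A17.2 cells with cytokines and 87.5 ± 13.1 CPM in those without, against 66.9 ± 10.3 CPM in control cells with cytokines and 58.5 ± 14.2 CPM in those without (n = 3). It was higher in A17.2 than in control cells with cytokines (log2 0.80 ± 0.20, adjusted p = 0.0342) and had a log2 difference of 0.58 ± 0.20 without (adjusted p = 0.119, and 0.000522 with the block). With the block it also rose with cytokines in A17.2 cells (log2 0.41 in the fit by group, adjusted p = 0.00995 with the block). *Ghr*, the growth hormone receptor, was at 7.63 to 9.25 CPM and was called in no comparison. *Prlr*, the prolactin receptor, had 5 counts in all.

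AP-1 subunits form the dimers that act on the proliferin promoter. Of 13 subunits 11 were tested, and 3 rose with cytokines in A17.2 cells and 3 in control cells, with median log2 changes of 0.52 and 0.79, beside -0.049 and -0.037 over all genes, of which 3.85% and 3.14% were called higher. *Junb* averaged 202 ± 46.8 CPM with and 71.9 ± 16.4 CPM without cytokines in A17.2 cells (log2 1.49 ± 0.36, adjusted p = 0.0406), against 244 ± 73.7 and 82.8 ± 46.8 CPM in control cells (1.56 ± 0.36, adjusted p = 0.0403). *Mafk* (log2 1.09 and 1.37) and *Maff* (1.08 and 1.18), small Maf proteins, were the others. With the block 5 rose in A17.2 cells and 7 in control cells, *Fosl2* among them in both, beside 10.6% and 10.4% of all genes. The most abundant subunits were *Jun* (531 ± 60.3 CPM in A17.2 cells with cytokines) and *Fosl1*, which encodes Fra-1 and lay at 276 to 294 CPM in all groups. Between the lines *Jdp2*, a repressor of AP-1, was higher in A17.2 cells with cytokines (log2 0.46 ± 0.11, adjusted p = 0.0315) and without (0.63 ± 0.11, adjusted p = 0.00775), and *Jund* was higher without (0.63 ± 0.17, adjusted p = 0.0447). The fit by group called 3.17% of all genes higher with cytokines and 2.86% without. The block fit called 1 of 11 subunits higher and 2 lower with cytokines, and 2 higher and 0 lower without. Of all genes it called 17.9% higher and 19.1% lower with cytokines, and 15.9% and 17.5% without. In edgeR 0 of 11 differed in their response between the lines, with 0 at an unadjusted p below 0.05 and 0 in DESeq2.

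Of the glucocorticoid receptor and 8 genes it induces, 7 of 9 were tested. *Nr3c1*, the receptor, was at 38.2 to 40.5 CPM in all groups and was called in no comparison. *Dusp1*, a phosphatase that inactivates MAP kinases, fell with cytokines to 6.16 ± 0.93 CPM against 21 ± 4.86 CPM in A17.2 cells (log2 -1.77 ± 0.34, adjusted p = 0.00873) and to 8.97 ± 3.65 CPM against 23.4 ± 9.17 CPM in control cells (-1.37 ± 0.33, adjusted p = 0.047). It was the only cytokine call of the list in the fit by group, at list medians of -0.30 and -0.12. With the block 4 of 7 fell in A17.2 cells, and 2 fell and 1 rose in control cells, where the block fit called 6.94% of all genes lower in A17.2 cells and 8.88% in control cells. *Sgk1*, a kinase, was lower in A17.2 than in control cells, with 50.5 ± 2.39 against 118 ± 39.6 CPM with cytokines (log2 -1.23 ± 0.22, adjusted p = 0.00957) and 85 ± 5.69 against 164 ± 34.2 CPM without (-0.95 ± 0.22, adjusted p = 0.0257). *Klf9* went the other way, at log2 0.50 ± 0.30 with cytokines and 0.76 ± 0.30 without. Its adjusted p was 0.394 and 0.182 in edgeR, and 0.0039 and 0.0001 with the block. Between the lines the block fit called 1 of 7 higher and 2 lower with cytokines, and 1 higher and 1 lower without. Of all genes it called 17.9% higher and 19.1% lower with cytokines, and 15.9% and 17.5% without. *Fkbp5*, a co-chaperone of the receptor, had 101.5 to 125 CPM and was not called in the fits by group.

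Other placental genes were low or at 0. Of 21 such genes 7 passed the filter, *Rhox9* was at 0 in all libraries, and *Hand1*, which drives trophoblast giant cells, and *Tpbpa* of the spongiotrophoblast had 1 count each in all. Over the list of 9 trophoblast markers the summed level was 10.1 to 13.1 CPM in A17.2 cells with cytokines and 13.1 to 15.7 CPM in those without, against 8.28 to 15.2 CPM in control cells with cytokines and 10.3 to 16.6 CPM in those without. Most of it came from *Eomes*, *Gata3* and *Gata2*, transcription factors that other tissues also use. *Eomes* was higher in A17.2 than in control cells, with 6.59 ± 0.38 against 3.72 ± 0.55 CPM with cytokines (log2 0.82 ± 0.20, adjusted p = 0.0309) and 9.07 ± 1.35 against 4.51 ± 0.46 CPM without (1.01 ± 0.20, adjusted p = 0.0116). *Tfap2c* fell with cytokines in both lines (log2 -1.61 ± 0.38 and -2.25 ± 0.40, adjusted p = 0.0359 and 0.00813). *Eomes* was the only placental call between the lines in the fit by group, in the direction opposite to the proliferins, whereas the block fit called 1 of 7 higher and 3 lower with cytokines and 1 higher and 2 lower without. Of all genes the block fit called 17.9% higher and 19.1% lower in A17.2 cells with cytokines, and 15.9% higher and 17.5% lower without. *Plac8*, at 0.195 to 2.12 CPM, was among its lower calls, with log2 -1.50 ± 0.54 with cytokines and -1.945 ± 0.616 without. Its adjusted p was 0.13 and 0.0945 in edgeR, and 0.00208 and 0.00346 with the block. DESeq2 called 3 of 7 placental genes with cytokines and 2 without, beside 12.7% and 11.4% of all genes.

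Of 9 growth and migration genes known from fibroblasts, 8 were tested and 0 were called by edgeR in any of the comparisons. In the comparison of A17.2 with control cells, 2 with cytokines and 3 without had an unadjusted p below 0.05, DESeq2 called 1 in each, and the block fit called 2 and 5. Of all genes DESeq2 called 12.7% with cytokines and 11.4% without, and the shares of the block fit are those given for the placental genes. *Mmp3*, stromelysin 1, was at 0.121 ± 0.131 CPM in A17.2 cells and 2.16 ± 1.81 CPM in control cells with cytokines (log2 -4.23 ± 1.27, adjusted p = 0.0744, and 3.55e-06 with the block). It had 0 to 6 counts in these A17.2 libraries. The lowest of these control libraries, with 3 counts (0.179 CPM), lay below the highest A17.2 library (0.26 CPM). By direction, the block fit called 1 higher and 1 lower with cytokines, and 3 higher and 2 lower without. *Odc1* was among those higher, at log2 0.66 ± 0.27 with cytokines and 0.82 ± 0.28 without. Its adjusted p was 0.195 and 0.115 in edgeR, and 0.000789 and 0.000154 with the block. The list was led by *Hmga1*, a chromatin protein, at 912 to 1109 CPM.

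Neighbouring genes lay 166 to 763 kb from the 401 kb locus and 106 to 2065 kb from the main cluster. Between the lines, edgeR called 3.17% of all genes higher and 3.68% lower with cytokines, and 2.86% and 3.57% without. The block fit called 17.9% higher and 19.1% lower with cytokines, and 15.9% and 17.5% without. DESeq2 called 12.7% and 11.4% in either direction. With so few neighbours tested, nothing is read from their counts of calls. Neighbours were the nearest protein-coding genes outside the family, taken in equal number from each side. Of the 10 neighbours of *Prl2c2*, *Prl2c3* and *Prl2c5*, 7 were tested, with median log2 differences between A17.2 and control cells of -0.023 with cytokines and -0.013 without. In either state 0 were called by edgeR or DESeq2, with 0 at an unadjusted p below 0.05, and 1 and 2 with the block. *Nid1*, a basement membrane protein, had 93 ± 12.9 CPM in A17.2 cells and 94.5 ± 11.2 CPM in control cells with cytokines. *Lgals8*, which encodes a galectin, rose with cytokines in A17.2 cells (log2 0.74 ± 0.14, adjusted p = 0.00868) and had a log2 difference of 0.56 ± 0.14 in control cells (adjusted p = 0.0555, and 0.000217 with the block). Beside the main cluster with *Prl2c1*, 7 of 10 neighbours were tested and 0 were called by edgeR or DESeq2 between the lines (0 with cytokines and 1 without at an unadjusted p below 0.05, 0 and 2 with the block), with median log2 differences of 0.20 and 0.072. *Gm11361* had the highest level there, 104.6 ± 16.8 CPM in A17.2 cells with cytokines, and *Nrsn1* was at 0.

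The genes whose log2 CPM over the 12 libraries resembled the proliferin sum most, of 13387 with a mean of at least 1 CPM, were *Glrp1* (r = 0.987), *Ebp* (0.983), which encodes a sterol isomerase, *P4ha2* (0.980), a collagen prolyl hydroxylase subunit, *Naip6* (0.979), *Ky* (0.973) and *Gm14845* (0.971). *Glrp1* had 1.86, 1.6 and 1.52 CPM in A17.2 cells with cytokines and 0.936, 0.755 and 0.834 CPM in those without, against 11.3, 7.61 and 5.86 CPM in control cells with cytokines and 10.6, 5.43 and 5.07 CPM in those without. It thus showed the same order of groups and the same high replicate 1 in control cells. Measured on deviations from the mean of each line, the closest were *Steap1* (0.962), *Abcb1b* (0.957), a drug efflux pump, *Gm8394* (0.945), *Cp* (0.945), ceruloplasmin, *Lgals3bp* (0.944) and *Cd34* (0.944). *Cp* had 6.3, 4.25 and 2.7 CPM in A17.2 cells with cytokines and 0.936, 0.892 and 1.2 CPM in those without, against 31.8, 14.9 and 7.46 CPM in control cells with cytokines and 12.5, 7.47 and 3.2 CPM in those without. These are descriptions over 12 libraries that share lines, replicate numbers and depth.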

How the data were processed

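Raw counts for each gene symbol, not normalized, were deposited by the authors for the 12 libraries. Their notes name mm10 as the build. Aligner, counter and strandedness: not given in the sources used here. Also deposited were 2 tables of the authors' own comparisons (log2 fold changes and p-values), which were not used. In R 4.3.3, genes were filtered with edgeR's filterByExpr, scaled by TMM and tested with edgeR 4.0.16 (glmQLFit and glmQLFTest) in 1 fit over 4 groups, with Benjamini-Hochberg adjustment over 15649 genes and a threshold of 0.05. The members were tested singly and, in a further fit, as 1 summed row. Standard errors are the log2 fold change over the square root of F. DESeq2 1.42.0 and other filters and scalings were alternatives, and the code was tested on simulated data. Labels number the biological replicates 1 to 3 in each group. Deviations from group means over genes correlated in all 18 same-numbered pairs (r = 0.30 to 0.85, against -0.75 to 0.45 in 36 others), so the numbers were taken as pairs and used as a block. No replicates were duplicates: chi-square per degree of freedom was 21.7 or more. Nothing states that replicates were separate cultures, so p-values may measure technical spread only.

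The members and lists were chosen with earlier results of these data known. Of each list other than cell type markers, called genes (up to 4 by adjusted p), the highest and those at 0 were named, and of closest patterns the 6 highest Pearson correlations by each measure. *Fosl2*, *Fkbp5*, *Klf9*, *Mmp3*, *Odc1*, *Plac8*, *Col1a1*, *Col1a2* and *Thy1*, and *Glrp1* and *Cp* as those shown by library, were picked from these lists after their values were seen. CPM correlations used a prior count of 2. Coding sequences came from GENCODE M21 and promoters from RefSeq. A further motif that was searched is not reported here.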

Additional observations from a re-analysis of the deposited data

How the results depend on the processing

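The calls of the proliferins for cytokines in A17.2 cells (0 of 4 by group) depended on the setting. Leaving out a replicate number was chosen after seeing the data. DESeq2 called 3, no filter other than at least 1 count 3, DESeq2 size factors in edgeR 1, only the groups compared 1, and the replicate block 4. Here and below, the counts of 3 and 4 include *Prl2c1*, which passed the main filter on low counts only through the control libraries. The summed change was 1.65 (adjusted p = 0.00372) with DESeq2, 1.62 (3.16e-05) with no filter, 1.67 (0.0375) with only the groups compared and 1.47 (0.000694) with the replicate block. Leaving out 1 library gave 0 to 2 calls and sums of 1.22 to 1.88, leaving out a replicate number 0 to 1 calls and 1.14 to 1.97, and with the block 2, 4 and 3 calls and sums of 1.10, 1.53 and 1.89 without replicate 1, 2 and 3. The cause was not tested.

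In control cells the summed change was -0.056 to 0.81 without 1 library and 0.22 to 0.44 without a replicate number. Without 1 library, *Prl2c1* was at -0.13 to 1.22, *Prl2c2* at -0.037 to 0.75, *Prl2c3* at -0.092 to 0.93 and *Prl2c5* at -0.40 to 1.69, all lowest without control cells with cytokines replicate 1. Without control cells without cytokines replicate 3, *Prl2c2* was at -0.029 and the sum at -0.0060. With the block, 0 to 1 members were called without a replicate number, likewise for the difference of responses, where *Prl2c5* was at 0.14 to 2.39 without 1 library, at -0.26 without replicate 1 and at -0.27 with the block. A17.2 minus control without cytokines was -4.46 to -3.47 without a replicate number and -4.37 to -3.43 with the block. The summed difference of responses stayed above 0 and uncalled in all alternatives run (0.68 to 1.70).

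Counts over all genes moved most. With DESeq2 and the replicate block, 1033 and 2751 genes were called for cytokines in A17.2 cells (667 by group), 866 and 3021 in control cells (520), 1990 and 5791 between the lines with cytokines (1072), 1788 and 5225 without (1006), and 24 and 65 for the difference (0), which had 28 with no filter. With only the groups compared, 407 and 358 were called between the lines. Leaving out 1 library gave 304 to 1062 and 445 to 1092 between the lines, 334 to 551 for cytokines in control cells and 0 to 9 for the difference. A denominator of all Prl2c rows was not run, because the 4 members are all such rows. Depth limits *Prl2c1* and *Prl2c5*, with 3 to 10 counts in each A17.2 library without cytokines.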
